A study of Mus musculus with 6 samples.

Results

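The enzymes of glycolysis, the pentose phosphate pathway and the tricarboxylic acid (TCA) cycle were examined in mouse intestinal organoids treated with low-density lipoprotein (LDL). The members were 44 named genes out of 55416 in the table, of which 22 belong to glycolysis, 7 to the pentose phosphate pathway and 15 to the TCA cycle, and each was found by its Ensembl identifier in the GENCODE annotation. The rule used gene names and no measured value. Organoids are small epithelial structures grown from crypts in 3D culture, here from the duodenum and jejunum of 3 mice of the C57BL/6 strain with the genotype label WT. Crypts of each mouse were cultured with LDL at 50 µg/ml or with the PBS vehicle for 5 days, and 1 RNA-Seq library was made from each culture, so that 3 LDL libraries could be set against 3 PBS libraries within the mouse. No group carried a transgene or a deletion by its label, and crypts of a mouse in both arms share 1 animal. The animal identifier of mouse 3 has another prefix than those of mice 1 and 2, while its genotype label is the same. The meaning of the prefix was not settled.

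Glycolysis splits glucose into pyruvate in the cytosol, and hexokinase, phosphofructokinase and pyruvate kinase catalyze its controlled steps. The pentose phosphate pathway branches off at glucose 6-phosphate, where its oxidative arm makes NADPH and its nonoxidative arm interconverts sugars, among them the ribose of nucleotides. The TCA cycle oxidizes acetyl-CoA in mitochondria and feeds the respiratory chain. In the intestinal epithelium, crypt base cells and villus enterocytes are known to differ in how far they rely on glycolysis and on mitochondria, and many of the reactions are carried out by isozymes encoded by separate genes.

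The libraries held 22061545 to 31073360 reads on genes. All 7 epithelial markers were present, with Epcam between 20049 and 24334 normalized counts, and Krt8, Krt18 and Krt20 rose by 0.79, 0.93 and 0.91 on the log2 scale. The summed level of 7 stromal genes was 139.2 to 170.2 with PBS and 83.7 to 130.4 with LDL. Of them 5 lay under a mean of 10, among them Dcn, a fibroblast gene, at 0 to 4.88, while Vim, which held most of the sum, was at 106, 104 and 140.0 with PBS and 72.0, 68.2 and 97.8 with LDL and passed downward, with an adjusted p of 0.0470 in limma. The sum of 4 immune genes was 98.2 to 187.3 with PBS and 105.5 to 141.3 with LDL, with the T cell gene Cd3e at 1.24 to 7.32 and the macrophage and neutrophil gene Lyz2 at 75.8 to 164. The summed level of 3 fetal-like genes (Clu, Ly6a and Anxa1) ranged from 60.9 to 519.6 with PBS and from 1199 to 13046 with LDL, and its lowest value in each arm was in mouse 2. The summed level of 6 enterocyte genes ranged from 15753 to 34997 with PBS and from 18523 to 42229 with LDL, and mouse 2 was highest in each arm. Within that list 3 genes rose (Alpi, Apoa4 and Fabp2, by 2.13, 1.18 and 0.69) and 2 fell (Lct and Slc5a1, at -1.80 and -0.35). Of 5 stem cell genes Ascl2 rose (1.22) and Olfm4 and Smoc2 fell (-1.17 and -0.79), of 4 goblet cell genes Clca1 rose (2.81) and Fcgbp and Tff3 fell (-0.86 and -0.73), and of 4 Paneth cell genes Mmp7 rose (0.75) and Defa24 fell (-0.70). Of the 6 proliferation genes 0 passed the test (limma, with 1 at an unadjusted p under 0.05), and their sum was 65456 to 67766 with PBS and 59956 to 66902 with LDL. The LDL library of mouse 1 held 7.62% of its values on Rn18s-rs5, a ribosomal RNA gene, against 0.0826% to 3.02% in the others. Rises and falls of these genes are calls of limma with the mouse as a block at an adjusted p under 0.05. Of all genes tested 15.7% passed in this way. Without the block limma called 0 of the epithelial, stem cell, Paneth cell, stromal and fetal-like genes, 1 enterocyte gene and 2 goblet cell genes. Olfm4 had an adjusted p of 0.153 in DESeq2 with the block. The part of these differences in the results given here was not tested. In organoid RNA, fewer cells of a type and less RNA per cell cannot be told apart.

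LDL changed 12 of the 43 enzymes that could be tested, 6 upward and 6 downward. Hk1, Hk2, Pkm and Pfkfb3 of glycolysis and G6pdx and Pgd of the oxidative pentose phosphate arm rose, whereas Pfkm and Pfkfb4 of glycolysis and Idh2, Idh3b, Idh3g and Suclg2 of the TCA cycle fell. The share of members that passed was 27.9%, against 15.7% of the 18459 genes tested, 8.27% of genes passing upward and 7.45% downward. A gene passed when limma, with the mouse as a block, gave a Benjamini-Hochberg adjusted p under 0.05 on log2(normalized count + 1). Most changes were small. Only 2 of the 43 tested members, Hk1 and Pfkfb3, both passed and exceeded 1.5-fold, against 9.14% of all genes tested. Hk3 was the member not tested, because its mean lay under 10 normalized counts, with 3.06, 1.24 and 3.26 with PBS and 9.76, 1.82 and 0.836 with LDL.

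The calls depended on the mouse term, to a degree that differed between tools. When the mouse was left out of the limma model, 0 of the 43 members passed, with 9 at an unadjusted p under 0.05 and the lowest adjusted p, 0.0566, at G6pdx. Without that term 1.34% of all genes passed in limma, while edgeR without it called 1 member. DESeq2 without it called 7 members (8.43% of all genes), namely Pfkm and the 6 members that rose, and 0 TCA members. Leaving out mouse 3 kept 1 of the 12 calls, Pfkfb3, at a background of 1.85%, and leaving out mouse 1 kept 4, Hk1, Pfkm, Pfkfb3 and G6pdx, at a background of 8.0%. Leaving out mouse 2 raised the background to 30.8% of genes, and the TCA enzymes lower with LDL from 4 to 9.

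**Figure D1:**
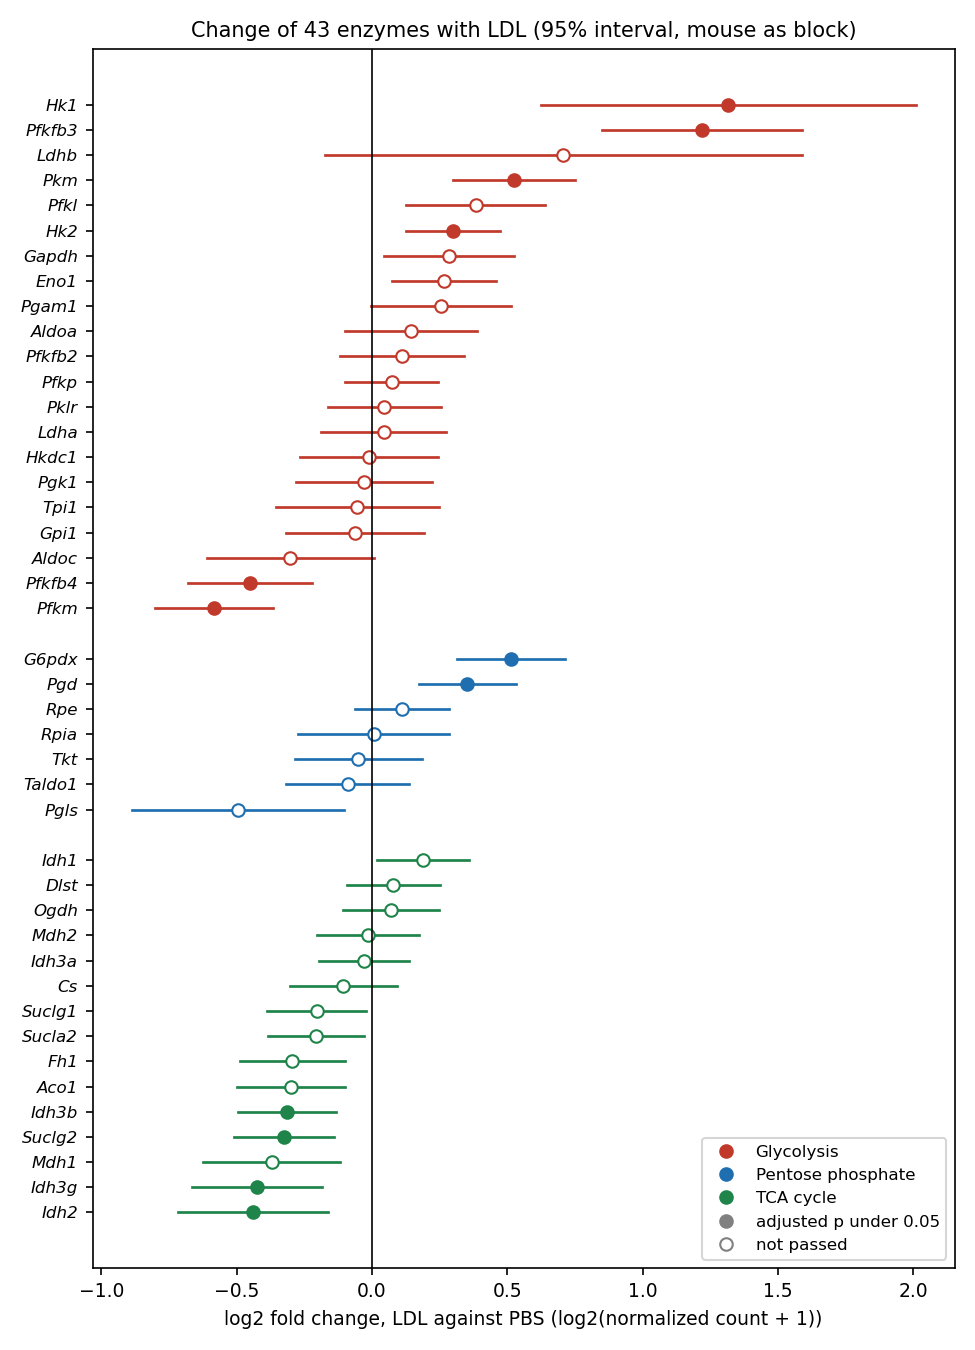
Log2 fold change of each of the 43 tested enzymes, LDL against PBS, on the horizontal axis, with its 95% interval from limma with the mouse as a block, and filled points for adjusted p under 0.05. The glycolytic points spread from -0.58 (Pfkm) to 1.32 (Hk1), while 12 of the 15 TCA points lie below 0.

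Glycolysis had 4 members that rose and 2 that fell among 21 tested. Its median log2 change was 0.11, against -0.016 over all genes tested, with 14 members above 0 and 7 below. In 10 members the LDL library was higher in each of the 3 mice and in 2 it was lower in each. Of all genes tested 51.1% kept 1 direction in all 3 mice. LDL and PBS libraries did not overlap in 5 of the 21 members (23.8%), near the 24.2% of all genes tested. The hexokinases phosphorylate glucose and so trap it in the cell. Hk1 (ENSMUSG00000037012, chr10:62104621-62215687, minus strand) encodes a broadly expressed form and was at 282, 268 and 234 with PBS and 1046, 308 and 851 with LDL for mice 1, 2 and 3. LDL and PBS libraries did not overlap, yet the rise was large in mice 1 and 3 and small in mouse 2, at 3.71-, 1.15- and 3.64-fold. Its log2 change was 1.32 ± 0.30 (SE), a 2.49-fold rise, with an adjusted p of 0.0236 in limma and 0.137 without the mouse block. The mice with the large rise were those with the higher fetal-like gene levels, and a link was not tested. DESeq2 with the block gave Hk1 an adjusted p of 0.0743.

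Hk2 (ENSMUSG00000000628, chr6:82699740-82751469, minus strand) encodes the insulin- and hypoxia-responsive hexokinase and was at 1279, 1238 and 1363 with PBS and 1608, 1569 and 1597 with LDL. Every LDL library lay above every PBS library, and the log2 change was 0.30 ± 0.075 (SE), with an adjusted p of 0.0335 in limma and 0.113 without the block. Hk2 was the least stable of the calls and passed in 6 of 14 alternative settings. Hkdc1, a hexokinase-like enzyme that accounted for the largest part of hexokinase RNA per kilobase of exon, was at 1324, 2279 and 1217 with PBS and 1192, 1991 and 1516 with LDL. Its values were lower with LDL in mice 1 and 2 and higher in mouse 3, the arms overlapped, and its log2 change was -0.010 with an adjusted p of 0.965.

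Phosphofructokinase commits fructose 6-phosphate to glycolysis, and its subunits come in muscle, liver and platelet types, of which 1 passed the test. Pfkm (ENSMUSG00000033065, chr15:97990451-98031417, plus strand), the muscle type, was at 463, 584 and 473 with PBS and 299, 395 and 321 with LDL. The LDL library was the lower in each mouse and the arms did not overlap. Pfkm fell by 0.584 ± 0.093 (SE) on the log2 scale, the largest fall among the 43 enzymes, with an adjusted p of 0.00629 in limma and 0.100 without the block. Pfkl, the liver type, was at 2174, 3138 and 2775 with PBS and 2779.7, 5056 and 2993 with LDL. It was higher with LDL in every mouse, most in mouse 2, but missed the threshold with a log2 change of 0.38 ± 0.11 (SE) and an adjusted p of 0.0537, while DESeq2 with the block gave 0.0155. Pfkp, the platelet type, was at 4207, 4767 and 3874 with PBS and 4415, 5247 and 3896 with LDL, with a log2 change of 0.072 and a 95% interval of -0.10 to 0.24. The annotated span of Pfkm overlaps that of Senp1 on the opposite strand, and whether their exons overlap was not examined. The libraries were made with a stranded kit, but whether reads were assigned by strand is not given in the sources used here.

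The PFKFB enzymes make and break down fructose 2,6-bisphosphate, the strongest known activator of phosphofructokinase, and 2 of them moved in opposite directions. Pfkfb3 (ENSMUSG00000026773, chr2:11476244-11558888, minus strand), the form with the highest kinase over phosphatase activity, was at 120.5, 314 and 207 with PBS and 394, 629 and 402 with LDL. It rose in each mouse, by 3.27-, 2.00- and 1.94-fold, and the arms did not overlap. The log2 change was 1.22 ± 0.16 (SE), with an adjusted p of 0.00289 in limma and 0.116 without the block. Pfkfb4 (ENSMUSG00000025648, chr9:108820832-108862847, plus strand) was at 599, 793 and 685 with PBS and 385, 652 and 505 with LDL. The LDL library was the lower in each mouse, although the LDL value of mouse 2 lay among the PBS values. Pfkfb4 fell by 0.452 ± 0.10 (SE) on the log2 scale, with an adjusted p of 0.0207 in limma and 0.260 without the block. Pfkfb2, at 411, 464 and 429 with PBS and 456, 450.2 and 501 with LDL, overlapped between the arms and had a log2 change of 0.11 with a 95% interval of -0.12 to 0.34.

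The enzymes between glucose 6-phosphate and enolase other than phosphofructokinase, which convert the hexose into phosphoenolpyruvate, gave 0 calls in limma, with 2 of 8 at an unadjusted p under 0.05, and DESeq2 with the block called Gapdh and Eno1. Gapdh, the dehydrogenase that yields NADH and the most abundant glycolytic member per kilobase of exon with LDL (3154 with PBS and 3844 with LDL), was at 19606, 26062 and 22074 with PBS and 26239, 32091 and 24236 with LDL. It was higher with LDL in each mouse, with a log2 change of 0.29 ± 0.10 (SE) and adjusted p-values of 0.107 in limma and 0.0338 in DESeq2. Eno1, which makes phosphoenolpyruvate, was at 8229.7, 12659.9 and 9762 with PBS and 10016, 15858 and 11108 with LDL, also higher in each mouse, with adjusted p-values of 0.0689 and 0.0388. Gapdh has 157 near-identical copies elsewhere in the genome and Eno1 has 3, whose values made up as much as 40.1% and 49.1% of the sum with their copies, so both are uncertain. Summing the copies gave log2 changes of 0.27 for each. Tpi1, the triose phosphate isomerase and the most abundant per kilobase with PBS (3245 with PBS and 3255 with LDL), was at 7630.5, 10141 and 9204 with PBS and 6361, 13001 and 7696 with LDL. Its LDL value was higher in mouse 2 and lower in mice 1 and 3, with a log2 change of -0.054.

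The same split between mouse 2 and the other two was present in Gpi1 and Pgk1. Gpi1, which makes fructose 6-phosphate, was at 12409, 17548 and 14205 with PBS and 10821, 20365 and 12323 with LDL, and Pgk1, which makes ATP, at 5797, 8679.8 and 6661 with PBS and 5058, 10551 and 5898 with LDL. Their log2 changes were -0.063 and -0.030, with 95% intervals of -0.32 to 0.19 and -0.28 to 0.22, and 3 near-identical copies held up to 58.4% of the Pgk1 sum. Aldoa, an aldolase that cleaves the hexose bisphosphate, was at 11323, 16977 and 14090.4 with PBS and 12178, 22057 and 13645 with LDL, higher in mice 1 and 2, with a log2 change of 0.15. Aldoc, its much scarcer relative, was at 239, 528 and 319 with PBS and 179, 540.2 and 222 with LDL, with a log2 change of -0.30 and an adjusted p of 0.175. Pgam1, the phosphoglycerate mutase, was at 3953, 5287 and 5176 with PBS and 4362, 7934 and 5327 with LDL. It was higher in each mouse, most in mouse 2, with a log2 change of 0.26 ± 0.11 (SE) and an adjusted p of 0.170.

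Pyruvate kinase makes pyruvate and ATP in the last step of glycolysis. Pkm (ENSMUSG00000032294, chr9:59563364-59586663, plus strand) was at 16026, 20734 and 20512 with PBS and 24245, 30802 and 27192 with LDL. All LDL libraries lay above all PBS libraries, the rise was 1.44-fold, and the log2 change was 0.52 ± 0.10 (SE), with an adjusted p of 0.0110 in limma and 0.118 without the block. Its table row joins the M1 and M2 isoforms, which were not separated. One near-identical copy elsewhere held at most 7.42% of the summed values, and the summed log2 change was 0.52. Pklr, the liver and red cell form, was at 1509.8, 2404 and 1463 with PBS and 1461, 2279 and 1751 with LDL, higher with LDL in mouse 3 only. Ldha, which turns pyruvate into lactate, was at 8577, 13860.3 and 10678 with PBS and 8349, 16735 and 9932 with LDL, higher in mouse 2 only, and its log2 change was 0.043 with a 95% interval of -0.19 to 0.27. Ldhb was at 12.2, 3.73 and 8.96 with PBS and 23.2, 10 and 9.20 with LDL, with no difference detectable at this depth and a 95% interval of -0.17 to 1.59.

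**Figure D2:**
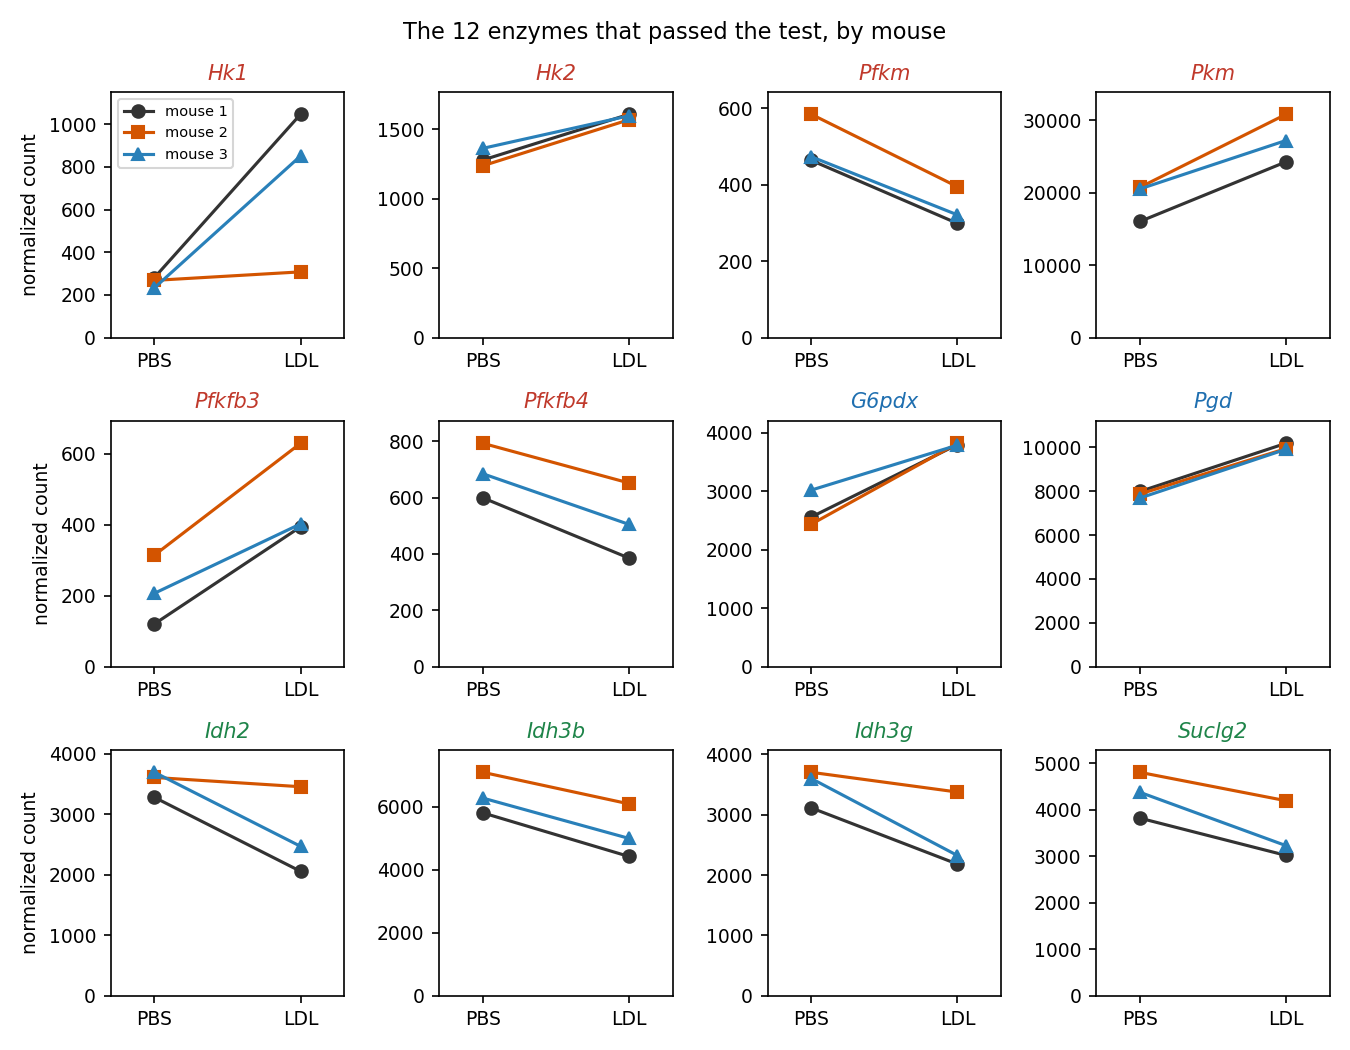
Normalized counts of the 12 enzymes that passed the test, with PBS and LDL on the horizontal axis and a line for each mouse (title colours: red glycolysis, blue pentose phosphate, green TCA cycle). Lines of all 3 mice run the same way in each panel, and the line of mouse 2 is the flattest for Hk1, from 268 to 308, and for Idh2, from 3609.8 to 3457.

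Of the 7 pentose phosphate enzymes 2 rose and 0 fell. G6pdx and Pgd, the dehydrogenases that each make NADPH, rose, whereas 0 of the 4 nonoxidative enzymes passed in limma, with 0 at an unadjusted p under 0.05. G6pdx (ENSMUSG00000031400, chrX:73449857-73472819, minus strand), the entry and rate-limiting enzyme, was at 2561, 2438 and 3021 with PBS and 3799, 3820.4 and 3789.5 with LDL. The LDL values were nearly equal across the mice and all above the PBS values, and the log2 change was 0.51 ± 0.086 (SE), a 1.43-fold rise, with an adjusted p of 0.00744 in limma and 0.0566 without the block. Pgd (ENSMUSG00000028961, chr4:149233246-149251228, minus strand), the second dehydrogenase, was at 7988, 7872 and 7689 with PBS and 10183, 9941 and 9911 with LDL. It rose in each mouse without overlap, by a log2 change of 0.35 ± 0.077 (SE), with an adjusted p of 0.0211 in limma and 0.0872 without the block. Pgls, the lactonase that works between them, was at 1366, 1463 and 1592 with PBS and 677, 1491 and 1125 with LDL. Its LDL value was lower in mice 1 and 3 and slightly higher in mouse 2, and the log2 change of -0.49 ± 0.17 (SE) did not pass, at an adjusted p of 0.0907. Pgls passed in DESeq2 with the block (0.0331), with total-count scaling and when mouse 2 was left out.

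In the nonoxidative arm, Tkt, the transketolase and the most abundant pentose phosphate member per kilobase, was at 19258, 21121 and 21589 with PBS and 17889, 23039 and 19134 with LDL. Taldo1, the transaldolase, was at 4378, 4594 and 4632 with PBS and 3524, 5071 and 4329 with LDL. Both were higher with LDL in mouse 2 and lower in mice 1 and 3, as was Rpia, the ribose 5-phosphate isomerase, at 1533, 1537 and 1598 with PBS and 1321, 2002 and 1442 with LDL. Rpe, the epimerase, was at 1445, 1586 and 1540.4 with PBS and 1649, 1651 and 1631 with LDL, higher in each mouse and without overlap, yet with a log2 change of 0.11 and an adjusted p of 0.376. The median over the 7 members was 0.0059, and it was -0.021 with upper-quartile scaling and -0.14 without mouse 2. Over the 3 oxidative members it was 0.35 and over the 4 nonoxidative members -0.023.

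The TCA cycle enzymes were lower with LDL in 12 of 15 members, and 4 of the 15 fell and 0 rose. The median log2 change was -0.21. In each of the 3 mice 11 members were lower and 3 were higher, and 51.1% of all genes kept 1 direction in all mice. No TCA member had LDL and PBS libraries that did not overlap, against 24.2% of all genes and 8 of the 43 members. Of the enzymes that fell, 3 act on isocitrate. Idh2 (ENSMUSG00000030541, chr7:79741431-79765535, minus strand), the mitochondrial NADP-dependent form, was at 3279.8, 3609.8 and 3695 with PBS and 2058, 3457 and 2471 with LDL. It was lower in each mouse but by very different amounts, with log2 ratios of -0.67, -0.063 and -0.58 in mice 1, 2 and 3. The log2 change was -0.44 ± 0.12 (SE), with an adjusted p of 0.0453 in limma and 0.228 without the block.

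The NAD-dependent isocitrate dehydrogenase is built of a catalytic alpha subunit and regulatory beta and gamma subunits, and the regulatory pair fell. Idh3b (ENSMUSG00000027406, chr2:130121227-130126467, minus strand) was at 5800.2, 7088 and 6269.7 with PBS and 4418, 6087 and 4991 with LDL. Idh3g (ENSMUSG00000002010, chrX:72820644-72830719, minus strand) was at 3111, 3702 and 3598 with PBS and 2181, 3375 and 2323 with LDL. Both were lower in each mouse, with log2 changes of -0.31 ± 0.078 (SE) and -0.43 ± 0.10 (SE), adjusted p-values of 0.0319 and 0.0307 in limma, and 0.261 and 0.218 without the block. Idh3a, the alpha subunit, was at 3496, 3669 and 3551 with PBS and 3361, 3667 and 3477 with LDL, with a log2 change of -0.029 and a 95% interval of -0.20 to 0.14. A difference in change between the subunits was not tested. The annotated span of Idh3b overlaps that of the highly expressed Nop56, and the span of Idh3g overlaps that of Ssr4, each on the opposite strand. Whether exons overlap was not examined, and reads in any shared exon cannot be told apart if strand was not used in counting. G6pdx and Idh2 overlap Ikbkg and Zfp710 in the same way.

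Suclg2 (ENSMUSG00000061838, chr6:95433231-95695866, minus strand), the GTP-forming beta subunit of succinyl-CoA ligase, was at 3816, 4800.3 and 4371 with PBS and 3015, 4190.5 and 3225 with LDL. It was lower in each mouse, by a log2 change of -0.32 ± 0.080 (SE), with an adjusted p of 0.0311 in limma and 0.269 without the block. One near-identical copy elsewhere held up to 20.2% of the summed values and left the summed change at -0.33. Its ATP-forming partner Sucla2 and the shared alpha subunit Suclg1 were at 2532, 3204 and 2801 with PBS and 2269, 2912 and 2241 with LDL and at 2695, 3115 and 2775 with PBS and 2172, 2966 and 2359.7 with LDL. Both were lower in each mouse, with log2 changes of -0.21 ± 0.077 (SE) and -0.21 ± 0.079 (SE), but did not pass, at adjusted p-values of 0.115 and 0.127.

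Fh1 (fumarase) and the cytosolic Aco1 and Mdh1 lay just outside the threshold. Fh1 was at 2317, 2725 and 2539 with PBS and 1750.2, 2512 and 1978 with LDL, Aco1, the aconitase that doubles as an iron sensor, at 3754, 4624 and 3867 with PBS and 2766, 4268 and 3045 with LDL, and Mdh1, of the malate-aspartate shuttle, at 3345, 4237 and 3764 with PBS and 2204, 4088 and 2738 with LDL. All were lower in each mouse, with log2 changes of -0.29, -0.30 and -0.37 and adjusted p-values of 0.0523, 0.0532 and 0.0581 in limma. With the block, the adjusted p-values were 0.0968, 0.0733 and 0.0370 in DESeq2 and 0.0485, 0.0584 and 0.0569 in edgeR. With upper-quartile scaling 7 TCA members passed downward and with total-count scaling 2. Cs (citrate synthase), with Idh3b the most abundant TCA member per kilobase, was at 9267, 10352 and 9315 with PBS and 7824, 10209.8 and 8978 with LDL, with a log2 change of -0.11. Mdh2, the mitochondrial malate dehydrogenase, was at 5818, 7059 and 6096 with PBS and 5381, 7616 and 5905 with LDL, with a log2 change of -0.016 and a 95% interval of -0.20 to 0.17. The members above 0 were Idh1, Dlst and Ogdh, at log2 changes of 0.19, 0.079 and 0.069. Ogdh and Dlst, subunits of the 2-oxoglutarate dehydrogenase complex, were at 6494, 6813 and 6076 with PBS and 6505, 7189.7 and 6642 with LDL and at 4767, 5451 and 5173 with PBS and 5197, 5651 and 5391 with LDL, higher with LDL in each mouse and overlapping between the arms. Idh1, the cytosolic NADP-dependent isocitrate dehydrogenase, was at 3666, 4999 and 4109 with PBS and 4074, 5583 and 4905 with LDL, higher in each mouse, with an adjusted p of 0.130.

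Within mice, the pathways kept their order but mouse 2 stood apart. The median log2 ratio of the glycolytic members was 0.11, 0.28 and 0.041 in mice 1, 2 and 3, that of the TCA members -0.31, -0.063 and -0.32, and that of the pentose phosphate members -0.11, 0.14 and -0.098. In mouse 2 16 of 21 glycolytic and 7 of 7 pentose phosphate members were higher with LDL, against 12 and 3 in mouse 1 and 13 and 3 in mouse 3. Over all genes tested the medians were -0.039, 0.0014 and -0.016. The LDL library of mouse 2 also gave the glycolytic members the largest share of its values, 0.728%, against 0.417% to 0.543% in the other 5 libraries. With 1 library per mouse and treatment, the mouse and its culture cannot be told apart.

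**Figure D3:**
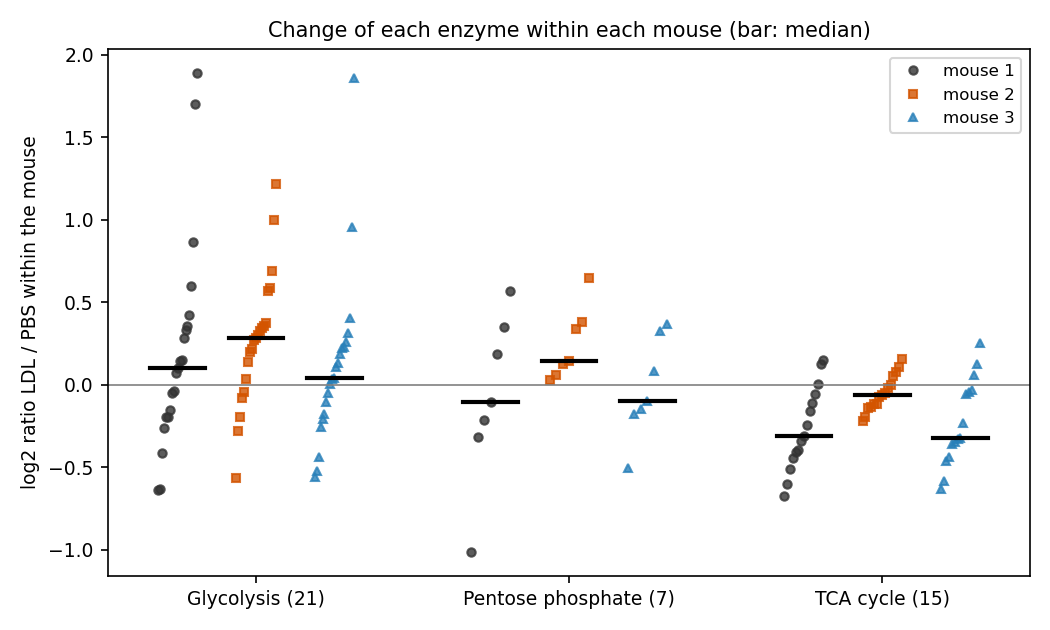
Log2 ratio of LDL to PBS within each mouse for every tested enzyme (vertical axis), by pathway, with a bar at the median. The TCA medians lie at -0.31 and -0.32 in mice 1 and 3 and at -0.063 in mouse 2, and the glycolysis medians are above 0 in each mouse.

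Shares of each reaction held by its isozymes were compared per kilobase of exon, with the difference taken within mice and an exact sign-flip permutation test, which cannot go below p = 0.25 with 3 mice. Pfkfb3 made up 9.44, 17.9 and 14.1% with PBS and 29.5, 33.5 and 27.3% with LDL of the PFKFB sum for mice 1, 2 and 3, a mean gain of 16.3 ± 3.5 percentage points (SD, n = 3, exact p = 0.25, adjusted over the 21 shares of 8 reactions 0.309). Pfkfb4 made up 55.2, 53.1 and 55.0% with PBS and 33.9, 40.8 and 40.3% with LDL. The PFKFB sum itself was 186 with PBS and 194 normalized counts per kilobase with LDL. Hk1 was higher by 14.6, 0.833 and 10.4 percentage points of the hexokinase sum in mice 1, 2 and 3, from a mean of 6.10% to 14.7%, while Hkdc1 went from 61.4% to 52.0% (exact p = 0.25 for each).

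Pfkm held 10.9, 10.9 and 10.5% with PBS and 6.44, 5.83 and 7.09% with LDL of phosphofructokinase RNA, with no overlap between the arms, and the Pfkl share was higher in each mouse, from a mean of 39.7% to 46.6%. Pkm went from 75.1% to 80.9% of pyruvate kinase RNA. Among the NADP-dependent isocitrate dehydrogenases the cytosolic Idh1 held 58.7, 63.8 and 58.6% with PBS and 71.6, 67.2 and 71.6% with LDL, above every PBS value in each LDL library. The mitochondrial Mdh2 went from 59.3% to 65.1% of malate dehydrogenase RNA. Shares depended on the length used. Per kilobase of the longest protein-coding transcript the Pkm share went from 91.5% to 93.8%, a gain of 2.33 in place of 5.81 percentage points, and the Pfkm share from 5.26% to 3.12%, a change of -2.15 in place of -4.29. Each of these shifts had 1 direction in the 3 mice and an exact p of 0.25, the smallest possible.

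**Figure D4:**
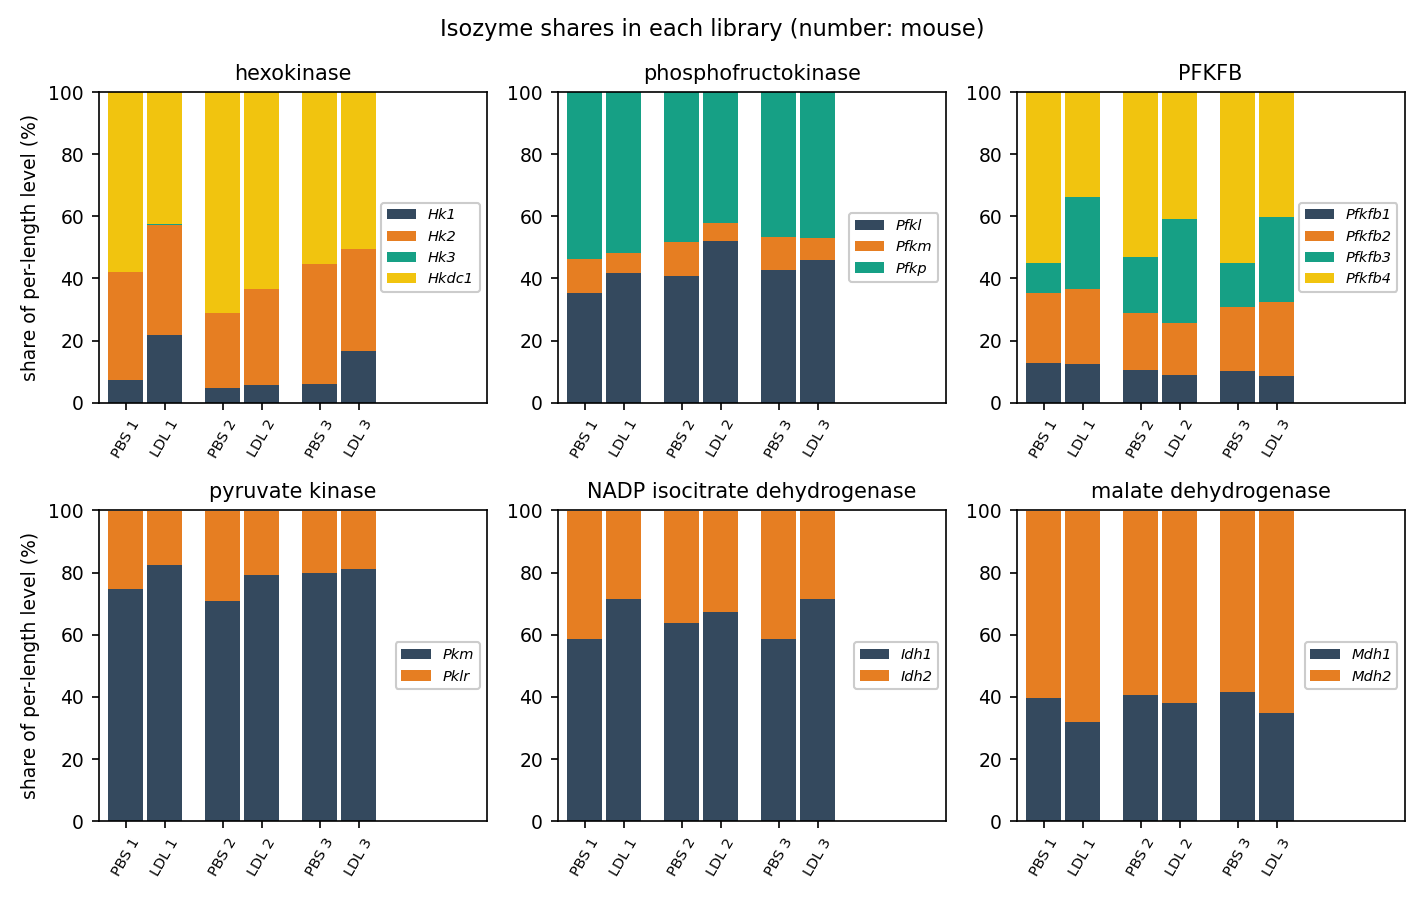
Share of each isozyme in the summed per-length level of its reaction (percent, stacked to 100), in the PBS and LDL library of each mouse. The Pfkfb3 part widens from 9.44%, 17.9% and 14.1% to 29.5%, 33.5% and 27.3%, and the Hk1 part widens mainly in mice 1 and 3.

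Other genes of the same pathways, listed by name, were read beside the members. Of 9 glucose and lactate transporters tested, 3 rose and 1 fell, while 8.27% of all genes tested rose and 7.45% fell. Slc2a1 (GLUT1, the basal glucose transporter) was at 731, 806 and 725 with PBS and 1559, 1143 and 1499 with LDL, and it rose by a log2 change of 0.88 ± 0.12 (SE), with an adjusted p of 0.00368 in limma and 0.0269 without the block. The lactate carriers Slc16a3 and Slc16a1 rose by 0.81 and 0.34, with adjusted p-values of 0.00618 and 0.0244 (0.476 and 0.103 without the block). Slc5a1 (SGLT1, the brush border glucose carrier) was at 2402, 4086 and 2609 with PBS and 1927, 3383 and 1906 with LDL and changed by -0.35, adjusted p 0.0204, and 0.535 without the block. Of 14 other glycolytic genes 1 passed (7.14%, against 15.7% of all genes tested). It was Bpgm, which makes 2,3-bisphosphoglycerate, at 0.39 and an adjusted p of 0.0173 (0.0788 without the block).

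Of 7 other pentose phosphate genes 1 passed (14.3%, against 15.7% of all genes tested). This was H6pd, which runs the oxidative pentose phosphate reactions inside the endoplasmic reticulum. It was at 553, 449 and 555 with PBS and 1064, 829 and 887 with LDL, and its log2 change of 0.83 ± 0.091 (SE) had an adjusted p of 0.00138 in limma and 0.0345 without the block. Of 20 further genes of the TCA cycle and its entry, 6 fell and 1 rose, and the median was -0.25. The share that passed was 35%, against 15.7% of all genes tested. Me2 (mitochondrial malic enzyme) was at 2846, 3622 and 3042 with PBS and 1617, 2525 and 1664 with LDL and Mpc1 (mitochondrial pyruvate carrier) at 847, 1107 and 837 with PBS and 503, 712 and 530.1 with LDL. In neither did the arms overlap, and they fell by 0.73 and 0.68 on the log2 scale, with adjusted p-values of 0.00224 and 0.00217 (0.0953 and 0.0946 without the block). The succinate dehydrogenase subunits Sdhb and Sdhc and the pyruvate dehydrogenase subunit Pdha1 fell by 0.41, 0.43 and 0.43. The 1 that rose, named after its value was seen, was the dicarboxylate carrier Slc25a10, at 0.38. Of the 7 that passed, 0 did so without the block in limma, with 6 of the 20 at an unadjusted p under 0.05.

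Among 15 genes known to respond to hypoxia-inducible factor (HIF), 3 rose and 2 fell, a share of 33.3% against 15.7% of all genes tested. Egln3, an oxygen-sensing prolyl hydroxylase, was at 133, 205 and 140.0 with PBS and 489, 666 and 426 with LDL, with a log2 change of 1.72 ± 0.11 (SE) and an adjusted p of 0.000131 in limma and 0.0175 without the block. P4ha2 and Adm rose by 1.41 and 1.18 from low levels. P4ha2 was at 15.3, 63.4 and 34.2 with PBS and 92.7, 93.7 and 76.9 with LDL. Adm was at 12.2, 16.2 and 16.3 with PBS and 32.9, 46.4 and 27.6 with LDL. DESeq2 with the block gave Adm an adjusted p of 0.102. Vegfa was at 2262, 2189.5 and 2198 with PBS and 1283, 1981 and 1556 with LDL and Ddit4 at 895, 1223 and 1238 with PBS and 477, 964 and 678 with LDL, and they fell by 0.49 and 0.71 on the log2 scale. Without the block Egln3 alone of these passed in limma and edgeR, and DESeq2 also called Adm and P4ha2, with adjusted p-values of 0.0439 and 0.0498. Of 10 regulators 1 passed (10%, against 15.7% of all genes tested). It was Mlxipl, the carbohydrate-responsive factor ChREBP, which fell by 0.32 with an adjusted p of 0.0444 (0.121 without the block). Hif1a had a log2 change of 0.014.

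**Figure D5:**
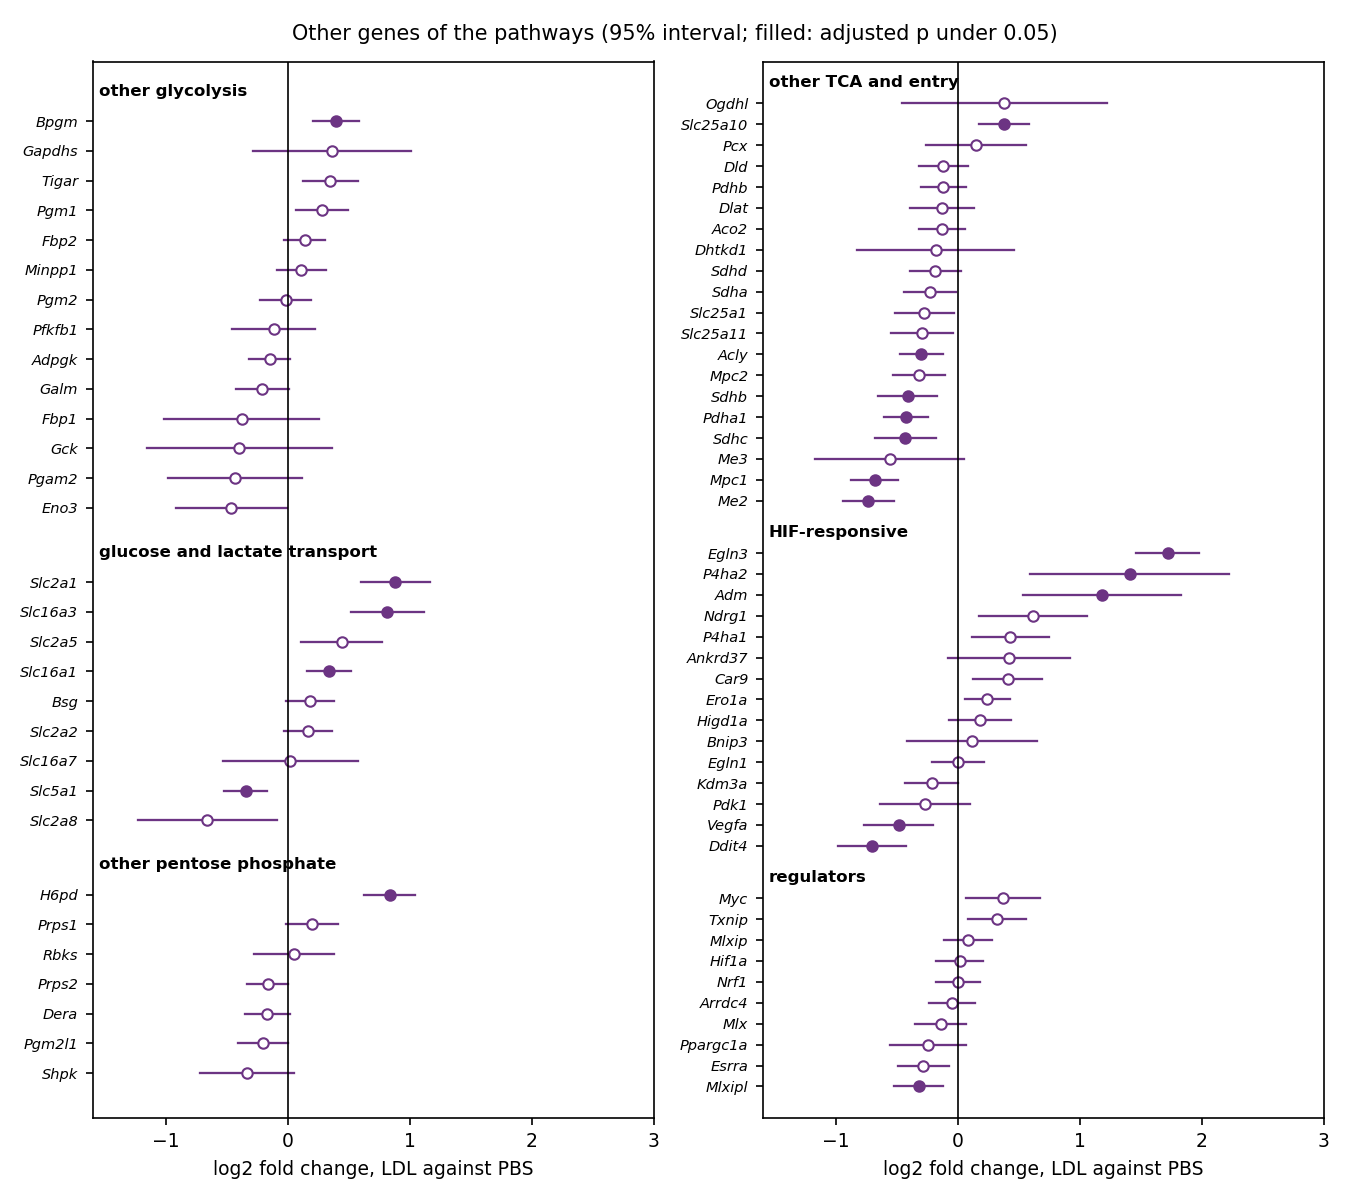
Log2 fold change, LDL against PBS, with its 95% interval from limma with the mouse as a block, for the tested genes of 6 further lists, with filled points for adjusted p under 0.05. Egln3 is at 1.72, Slc2a1 at 0.88 and H6pd at 0.83, while Me2 and Mpc1 are the lowest of the TCA and entry genes that passed.

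Promoter sequence was read for the member that changed most in each pathway among those that passed (Hk1, G6pdx and Idh2), and for Pfkfb3 and Pfkfb4, a pair picked after their opposite changes were seen. The windows are the 300 bases before the start of the Ensembl canonical transcript in GRCm39, 5′ to 3′ on the gene's strand, and which start the organoids used was not measured. For Hk1, Pfkfb3, Pfkfb4 and Idh2 that start lies inside the annotated gene. Capitals mark ACGTG or GCGTG on either strand, the letters at the core of HIF sites, so that CACGC is GCGTG on the other strand. The Hk1 window is chr10:62176322-62176621, minus strand, that of Pfkfb3 chr2:11507418-11507717, minus strand, that of Pfkfb4 chr9:108820546-108820845, plus strand, that of G6pdx chrX:73472820-73473119, minus strand, and that of Idh2 chr7:79765141-79765440, minus strand.
Hk1: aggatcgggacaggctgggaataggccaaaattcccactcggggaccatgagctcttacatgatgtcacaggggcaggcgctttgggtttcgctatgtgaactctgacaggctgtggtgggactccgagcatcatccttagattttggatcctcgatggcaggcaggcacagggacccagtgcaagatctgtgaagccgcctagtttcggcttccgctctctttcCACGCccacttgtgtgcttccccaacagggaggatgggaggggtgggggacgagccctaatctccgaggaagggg
Pfkfb3: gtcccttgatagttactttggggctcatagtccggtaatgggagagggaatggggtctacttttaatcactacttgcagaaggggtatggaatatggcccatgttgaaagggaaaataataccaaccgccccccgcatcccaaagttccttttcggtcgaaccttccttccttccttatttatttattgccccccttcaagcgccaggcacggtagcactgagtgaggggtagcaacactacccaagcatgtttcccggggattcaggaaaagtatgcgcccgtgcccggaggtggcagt
Pfkfb4: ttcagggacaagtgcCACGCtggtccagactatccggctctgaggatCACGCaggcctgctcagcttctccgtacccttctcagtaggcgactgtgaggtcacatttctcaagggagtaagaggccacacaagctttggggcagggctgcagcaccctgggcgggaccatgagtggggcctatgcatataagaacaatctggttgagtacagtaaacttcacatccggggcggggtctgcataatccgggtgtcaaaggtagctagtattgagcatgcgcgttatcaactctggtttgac
G6pdx: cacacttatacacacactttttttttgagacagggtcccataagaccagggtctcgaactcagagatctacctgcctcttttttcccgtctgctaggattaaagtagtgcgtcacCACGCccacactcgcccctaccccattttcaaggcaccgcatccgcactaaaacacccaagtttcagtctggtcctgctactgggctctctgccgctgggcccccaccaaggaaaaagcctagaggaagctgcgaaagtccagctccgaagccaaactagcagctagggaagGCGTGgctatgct
Idh2: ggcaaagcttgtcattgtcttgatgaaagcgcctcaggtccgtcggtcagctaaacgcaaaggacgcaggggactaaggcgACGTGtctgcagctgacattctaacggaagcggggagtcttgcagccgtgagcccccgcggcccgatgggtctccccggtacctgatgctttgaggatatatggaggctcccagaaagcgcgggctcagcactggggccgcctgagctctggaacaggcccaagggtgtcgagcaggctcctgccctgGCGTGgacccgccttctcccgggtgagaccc

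The letters stood 75 bases before the start in Hk1, 285 and 253 bases before it in Pfkfb4, 185 and 13 bases before it in G6pdx, and 219 and 31 bases before it in Idh2, and they did not occur in the Pfkfb3 window. They were in 28 of 44 member windows (63.6%), against 45.1% of 21756 protein-coding promoters of the same length. By pathway they were in 14 of 22 glycolytic, 7 of 7 pentose phosphate and 7 of 15 TCA windows, and in 7 of the 12 members that passed, namely Hk1, Hk2, G6pdx and Pgd, which rose, and Pfkm, Pfkfb4 and Idh2, which fell. The E-box CACGTG, which contains ACGTG, was in 2 member windows, those of Ldha and Pfkp, and in 6.95% of all. The direct repeat DR1 bound by PPAR, searched on both strands, was in 0 of 44 and in 0.0368% of all. A match of letters is a description of the window and not evidence that a factor binds there.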

How the data were processed

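RNA-Seq was analyzed in 6 libraries of organoids from 3 mice, mapped to treatment and mouse by their labels, in which both libraries of a replicate number carry 1 animal identifier. As deposited, the signal values are reads per gene divided by a size factor (normalized counts), which the authors made with bcl2fastq 2.20, STAR, featureCounts and DESeq2 on GRCm39. The strand setting, the annotation release and the handling of multiply mapped reads are not given in the sources used here. Multiplying by the size factor gave whole reads for 100% of the entries (tolerance 0.01), and depth was 22061545 to 31073360 reads on genes, so that a gene without a read could hold up to 3 by counting error alone. Names came from GENCODE M39, in which 54749 of 55416 identifiers were found.

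Normalized counts plus 1 were taken to log2 where the mean over the 6 libraries reached 10. LDL and PBS were compared with limma 3.58.1 (R 4.3.3, eBayes with a trend, two-sided, Benjamini-Hochberg over 18459 genes) with the mouse as a block, since each mouse gave both arms. After subtraction of the treatment means, the pair of libraries from mice 1, 2 and 3 had r = 0.48, 0.42 and 0.46 over genes, which are not independent replicates. The study's text does not state the DESeq2 design. edgeR 4.0.16 (quasi-likelihood, TMM) and DESeq2 1.42.0 on the recovered reads were alternatives, as were the fit without the block, other scalings, pseudocounts and filters, and leaving out each mouse. The fits were run on simulated data in which a change was the same in every mouse. How they behave when changes differ between mice was not tested. Near-identical copies were found by aligning member transcripts with minimap2 2.31 (at least 90% identity over 200 bases). Tables and figures used Python 3.11.15, pandas 2.3.3, numpy 2.4.6, scipy 1.17.1 and matplotlib 3.10.9.

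The members and gene lists were chosen with earlier results of these data known, and no set test was run. Values are given for each member that passed, for the most abundant members and for those in an isozyme share, and other genes are named where they passed, at most 5 a list by size of change. Some genes of the lists, and the aldolase shares that need 1 of them, are not reported here.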

Additional observations from a re-analysis of the deposited data

How the results depend on the processing

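In limma the calls of all 12 members were lost without the block for the mouse. With no replicate block, limma called 0 glycolytic members higher and 0 lower (4 and 2 with the block), 0 pentose phosphate members higher (2) and 0 TCA members lower (4), and over all genes 172 higher and 76 lower (1526 and 1375). edgeR with no replicate block called 0 glycolytic members higher and 0 lower, 1 pentose phosphate member higher, 0 TCA members lower, and 197 genes higher and 76 lower. DESeq2 with no replicate block kept the 6 members that rose (4 glycolytic and 2 pentose phosphate) and called 1 glycolytic member lower, 0 TCA members lower, and 1015 genes higher and 541 lower.

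Leaving out each mouse in turn gave 1 to 7 glycolytic members higher and 0 to 4 lower, 0 to 2 pentose phosphate members higher and 0 to 1 lower, 0 to 9 TCA members lower, and 265 to 2616 genes higher and 77 to 3062 lower over all genes. The highest counts came without mouse 2 and the lowest without mouse 3. With 2 mice left, the spread rests on few degrees of freedom. The pentose phosphate median ranged from -0.14 to 0.083. Upper-quartile scaling called 7 TCA members lower. Total-count scaling called 2 TCA members lower, 1 pentose phosphate member higher and 1 lower, and DESeq2 with the block called 1 pentose phosphate member lower. A change of over 1.5-fold was met by 2 glycolytic members higher and 0 lower, 0 pentose phosphate members higher and 0 TCA members lower. Over all genes it was met by 1048 higher and 639 lower. With transcript length in place of exon length the gain of the Pfkfb3 share was 12.3 percentage points (16.3), that of the Pkm share 2.33 (5.81), and the Pfkm share changed by -2.15 (-4.29). The cause was not tested, except that a fold threshold calls fewer genes by construction.

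None of the 12 members that passed changed sign under any alternative run. Sign changed in members near 0. Leaving out mice gave log2 changes of -0.17 to 0.082 for Hkdc1, -0.20 to 0.0086 for Gpi1, -0.26 to 0.050 for Tpi1, -0.19 to 0.053 for Pgk1, -0.062 to 0.11 for Pklr, -0.072 to 0.12 for Ldha, -0.18 to 0.12 for Rpia, -0.14 to 0.0095 for Tkt, -0.21 to 0.022 for Taldo1 and -0.079 to 0.032 for Mdh2. Without the block, DESeq2 and edgeR gave 0.017 and 0.021 for Tpi1, 0.037 and 0.041 for Pgk1 and 0.0094 and 0.014 for Mdh2. With the block, edgeR and DESeq2 gave 0.011 and 0.0066 for Hkdc1 and 0.0050 and 0.00054 for Mdh2. Rpia was at -0.021 with upper-quartile and -0.026 with total-count scaling. Pfkfb3 and G6pdx passed in 12 of 14 alternatives, Pfkm in 11, Hk1 and Pkm in 10, and Hk2 in 6. Depth limited Hk3 and Ldhb, whose means were near or under 10 normalized counts.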
